A study of Mus musculus with 6 samples.

Results

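The ATP-sensitive potassium channel of the mouse is built from the products of 4 genes: Abcc8, Kcnj11, Abcc9 and Kcnj8. They were followed on 6 Affymetrix 3′ expression arrays of pancreatic islets, 3 from control mice and 3 from mice given bisphenol A (BPA), an oestrogen receptor ligand used in making plastics. Members were all probe sets that the platform annotation assigns to 1 of these genes, a probe set being a group of short oligonucleotides read together as 1 signal. This gave 8 probe sets of 45037 (array controls aside), for 4 of 18193 named genes: 2 for Abcc8, 2 for Kcnj11, 3 for Abcc9 and 1 for Kcnj8. None of the 8 is annotated to a further gene.

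The animals were OF1 males, 10 weeks old. The labels give 3 accounts of the treatment. The series' design describes 100 µg/kg of BPA a day, injected under the skin over 4 days as doses of 50 µg/kg. Controls received 100 µL of stripped corn oil, and islets were taken 16 hours after the final dose. The samples' protocol has the same daily dose over 2 days, and the source name of each BPA sample has 1 nM during 48 hours, so the exposure behind these values is not settled. The number of animals per sample was not given in the sources used here, and p-values measure the spread between these samples.

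The channel couples the energy state of a cell to its membrane voltage. A pore-forming inward rectifier subunit (Kir6.2, from Kcnj11, or Kir6.1, from Kcnj8) assembles with an equal number of regulatory sulphonylurea receptors (SUR1, from Abcc8, or SUR2, from Abcc9). ATP at the pore subunit closes the channel, and magnesium nucleotides at the receptor open it. In beta cells the channel of Kir6.2 and SUR1 is open at low glucose and closes as glucose is metabolised, which depolarises the membrane, opens calcium channels and releases insulin. Sulphonylurea drugs close the same channel. Kir6.1 with SUR2 is the usual pair of pericytes and vascular smooth muscle, and splice forms of SUR2 serve heart and other muscle.

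The genes of each pair are neighbours. In the RefSeq gene table for GRCm38.p6, Kcnj11 and Abcc8 are adjacent protein-coding genes on chromosome 7, as are Kcnj8 and Abcc9 on chromosome 6. The non-coding gene Gm51481 overlaps Abcc8, and 5330439B14Rik overlaps Abcc9. RefSeq promoter sequences were at hand for 2 of the 4 genes, Abcc9 and Kcnj8. They are shown because the array signals of these neighbours are set side by side here. Both are read 5′ to 3′ on the minus strand, and each ends at the last base before an annotated start. Capitals mark the motifs found.
Abcc9, GRCm38.p6, chr6:142702275-142702524, minus strand: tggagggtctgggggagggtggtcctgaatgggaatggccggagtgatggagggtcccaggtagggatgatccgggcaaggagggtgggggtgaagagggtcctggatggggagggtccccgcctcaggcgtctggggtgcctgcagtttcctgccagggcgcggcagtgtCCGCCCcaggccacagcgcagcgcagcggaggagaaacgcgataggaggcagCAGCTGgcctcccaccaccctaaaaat
Kcnj8, GRCm38.p6, chr6:142571615-142571864, minus strand: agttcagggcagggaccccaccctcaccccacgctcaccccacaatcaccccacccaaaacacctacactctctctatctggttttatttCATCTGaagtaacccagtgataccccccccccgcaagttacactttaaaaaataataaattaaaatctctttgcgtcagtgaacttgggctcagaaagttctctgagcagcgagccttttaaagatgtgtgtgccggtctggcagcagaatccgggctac

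Both strands of each window were searched for 6 motifs. The GC box GGGCGG, which 32.7% of 32851 RefSeq windows of this length hold, matched once in Abcc9, on the opposite strand, and not in Kcnj8. The E-box CANNTG, held by 66.2% of windows, matched once in each. The oestrogen receptor half-site AGGTCA (14.0% of windows), the full element GGTCANNNTGACC (0.0639%), which can overlap a half-site, the TATA box TATAAA (12.4%) and the CArG box of muscle genes (1.47%) had no match in either window. The Abcc9 window was 66.8% G and C, and the Kcnj8 window 49.2%.

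Values are log2 signals as the authors deposited them, and 1 unit is a doubling. Medians of the arrays lay between 6.55 and 6.65. Probe sets whose mean over the 6 arrays exceeded the median of all were tested, which kept 22518 probe sets and 6 of the 8 members. The dimmer probe sets of Kcnj11 (1450515_at) and Abcc9 (1420408_a_at) were left out of this test and appear only in a fit without the filter. Over all probe sets the replicate 3 arrays of the groups correlated at 0.993 with each other and at 0.976 to 0.988 with the other 4 arrays, so results are also given without both. Of 10 beta cell markers 8 had a probe set annotated to 1 gene alone, and all 8 lay above the filter. They averaged 13.29 to 13.33 in controls and 13.24 to 13.37 after BPA (log2 signal), with Ins2 the brightest at 15.29. Of 12 markers of pericytes and smooth muscle, 10 lay above it, with Rgs5 the brightest at 11.98 and Cnn1 and Higd1b below it.

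The comparison of BPA with control asked whether the transcripts of this channel differ after short exposure. None of the 6 tested probe sets passed limma's moderated test at an adjusted p under 0.05, where 0% of all tested probe sets passed. At an unadjusted p under 0.05 the count was 0 of 6, against 6.47% of all. The groups overlapped for all 6, while they did not overlap for 12.2% of all tested probe sets. Of the 6, 3 had higher and 3 lower mean signal after BPA, with a median difference of 0.068 (log2) beside 0.011 over all. The count of 0 at the adjusted threshold held in every alternative setting tried, and no member reached an adjusted p below 0.339 in any of them.

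**Figure D1:**
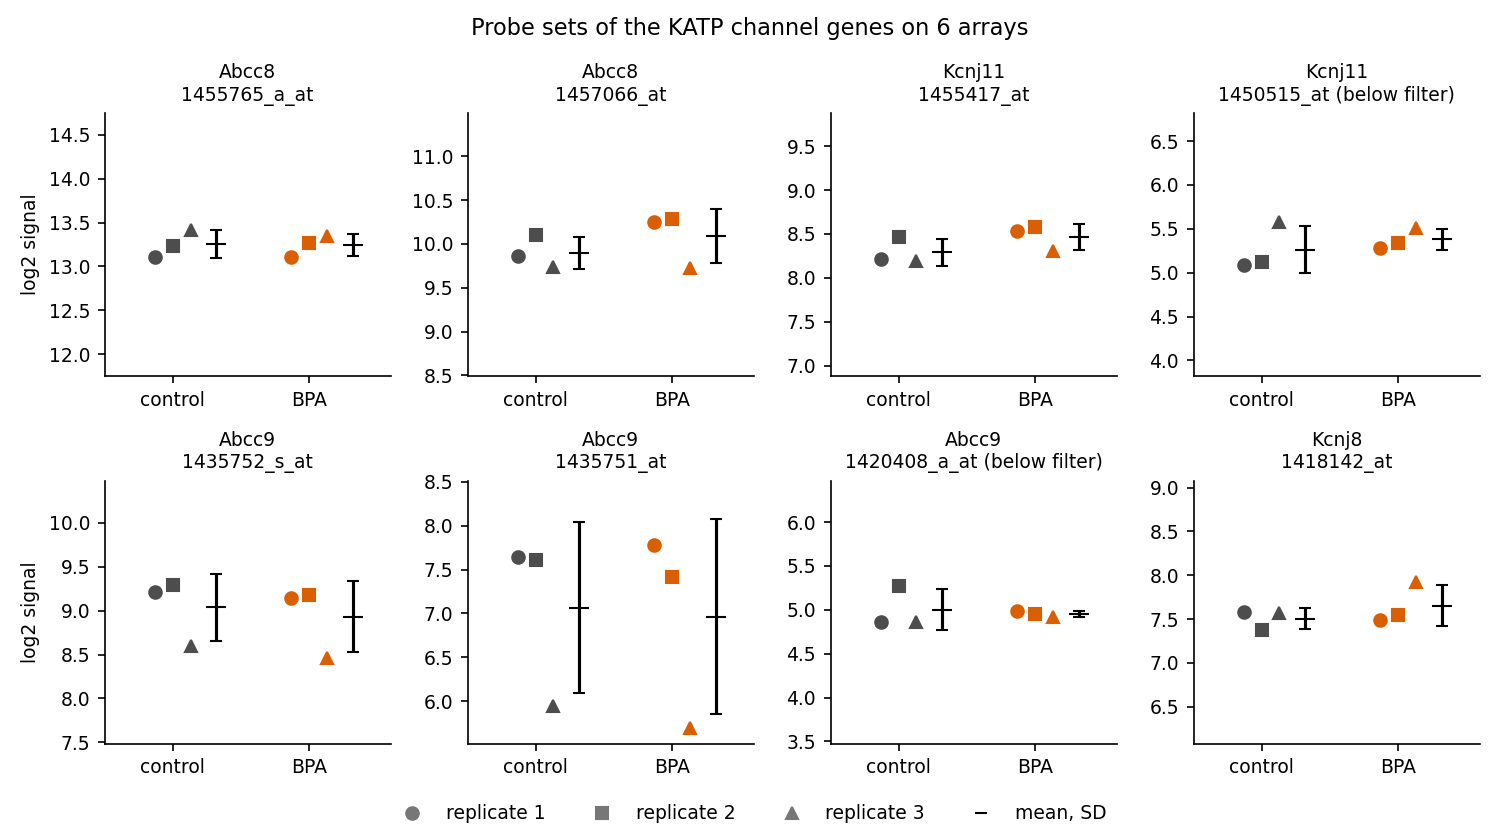
Log2 signal (vertical axis, each panel 3 units high) of the 8 probe sets of the channel genes, with 1 point per array, control arrays in grey and BPA arrays in orange, the marker shape giving the replicate number and the bars the mean and SD (n = 3 per group). The groups overlap in all 8 panels, and the replicate 3 arrays of both groups are the lowest for Abcc9 on 1435752_s_at (8.47 and 8.59) and 1435751_at (5.70 and 5.94).

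Abcc8 encodes SUR1, the regulatory subunit that binds sulphonylureas and magnesium nucleotides in beta cells. Its brightest probe set, 1455765_a_at, read 13.11, 13.23 and 13.42 in controls (replicates 1 to 3, here and throughout) and 13.11, 13.27 and 13.35 after BPA. The BPA values all lay inside the control range, with the lowest value of each group in replicate 1 and the highest in replicate 3. The BPA mean was 13.24 ± 0.12 and the control mean 13.26 ± 0.16 (SD, n = 3 per group). The difference was -0.011 ± 0.109 (log2, SE; limma adjusted p = 0.992), which has no settled sign: it was 0.011 under median centring and 0.016 under cyclic loess. Its 95% interval on the linear scale ran from 0.830 to 1.19 times the control signal. Without both replicate 3 arrays the difference was 0.017 ± 0.113.

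The other probe set of Abcc8, 1457066_at, behaved otherwise across the arrays. It read 9.86, 10.10 and 9.73 in controls and 10.25, 10.28 and 9.73 after BPA. BPA replicates 1 and 2 lay above all controls, while BPA replicate 3 was level with control replicate 3. The means were 10.09 ± 0.31 and 9.90 ± 0.19 (SD, n = 3 per group), a difference of 0.19 ± 0.19 (SE; limma adjusted p = 0.888) with a 95% interval from -0.25 to 0.63. Without BPA replicate 3 the difference was 0.37 with an unadjusted p of 0.0433 (limma adjusted p = 0.339), and without both replicate 3 arrays it was 0.29 ± 0.14 (adjusted p = 0.454). It was 0.29 without control replicate 2, and smaller without BPA replicate 2 (0.091), control replicate 3 (0.11) or BPA replicate 1 (0.11). Over the 6 arrays the signals of the Abcc8 probe sets correlated at -0.54, and their values are therefore given apart. Where in the transcript each probe set lies was not analysed here.

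Kcnj11 encodes Kir6.2, the pore that ATP closes. On 1455417_at it read 8.21, 8.47 and 8.19 in controls and 8.53, 8.58 and 8.30 after BPA. BPA replicates 1 and 2 were above all controls, and BPA replicate 3 fell between them. The means were 8.47 ± 0.15 and 8.29 ± 0.16 (SD, n = 3 per group). The difference of 0.18 ± 0.14 (SE) had a limma adjusted p of 0.862 and a 95% interval of 0.903 to 1.42 times the control signal. It stayed positive in all 16 alternatives, from 0.13 to 0.27, and was 0.21 ± 0.15 without both replicate 3 arrays. Its signals followed those of Abcc8 on 1457066_at (r = 0.94 over 6 arrays, both probe sets being read from the same RNA samples) and not those of 1455765_a_at (r = -0.35).

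The dim probe set of Kcnj11, 1450515_at, read 5.09, 5.12 and 5.57 in controls and 5.28, 5.34 and 5.51 after BPA. All BPA values lay inside the control range, and the replicate 3 arrays were the highest. Means were 5.38 ± 0.12 and 5.26 ± 0.27 (SD, n = 3 per group). In the fit without a filter on dim probe sets the difference was 0.12 ± 0.15 (SE; limma adjusted p = 0.917).

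The balance between 3′ and 5′ probe sets of mouse transcripts that the array holds as controls separated the groups for Actb and Gapdh and not for Pcx. The 3′ probe set of Actb exceeded the 5′ one by 3.35 to 3.80 in controls and by 2.61 to 2.98 after BPA (log2), and that of Gapdh by 3.40 to 3.79 and by 2.58 to 2.99. For Pcx the ranges overlapped, at 3.98 to 4.26 and 3.83 to 4.08. The part of this balance in the differences of Abcc8 and Kcnj11, and of the listed genes below, was not tested. The mean of the beta cell markers differed by -0.018 between the groups (p = 0.7 by a two-sided exact permutation test, n = 3 per group, smallest possible 0.1). Fewer cells of a type and less RNA per cell cannot be told apart in these bulk samples.

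**Figure D2:**
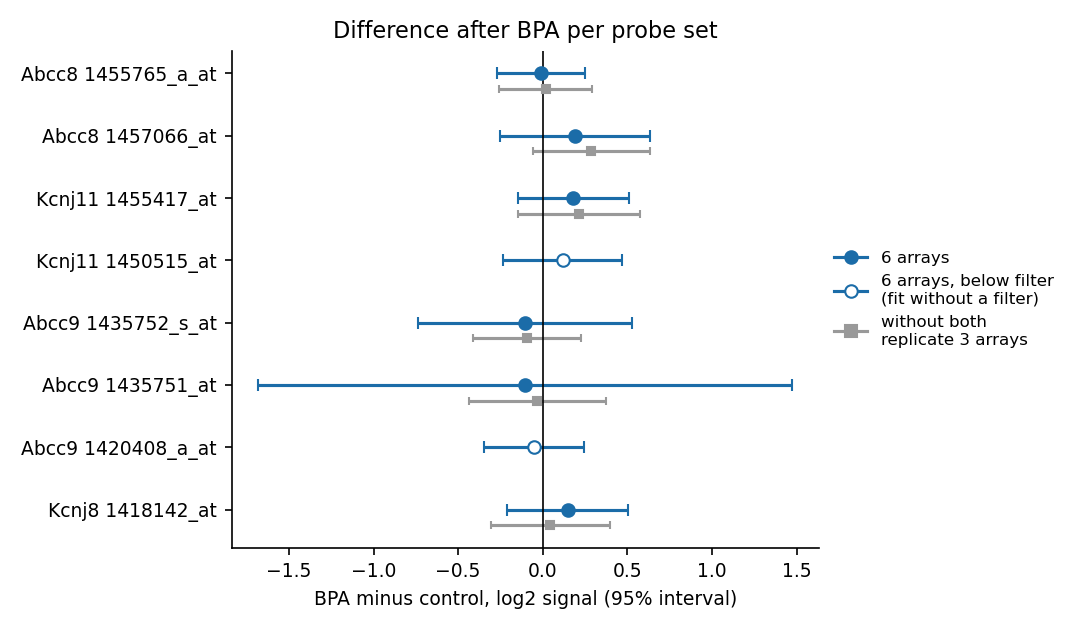
Difference in log2 signal, BPA minus control (horizontal axis), with its 95% interval for each of the 8 probe sets: filled circles for the 6 tested ones on 6 arrays, open circles for the dim ones from the fit without a filter, and grey squares for the fit without both replicate 3 arrays. Every interval holds 0, and that of Abcc9 on 1435751_at is the widest, from -1.68 to 1.47 with 6 arrays and from -0.44 to 0.37 without the replicate 3 arrays.

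Abcc9 encodes SUR2, the regulatory partner in vascular and muscle cells. On its brightest probe set, 1435752_s_at, a type whose oligonucleotides can match more than 1 transcript, it read 9.22, 9.30 and 8.59 in controls and 9.14, 9.18 and 8.47 after BPA. In both groups replicates 1 and 2 were close together and replicate 3 was lower. The means were 8.93 ± 0.40 and 9.04 ± 0.39 (SD, n = 3 per group), with a difference of -0.11 ± 0.27 (SE; limma adjusted p = 0.956). The range within controls, 0.705, was larger than the difference. Without both replicate 3 arrays the difference was -0.094 ± 0.131.

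On 1435751_at the same pattern was wider. The controls read 7.65, 7.61 and 5.94 and the BPA arrays 7.78, 7.42 and 5.70. The means of 6.96 ± 1.11 and 7.07 ± 0.97 (SD, n = 3 per group) lay between the high arrays and the low array of each group. The difference was -0.10 ± 0.66 (SE; limma adjusted p = 0.986) on 6 arrays and -0.032 ± 0.167 without both replicate 3 arrays. The signals of these 2 probe sets, which are annotated to the same source sequence, correlated at 0.98 over the 6 arrays. Leaving out 1 array could turn the sign for either: without BPA replicate 3 the differences were 0.13 on 1435752_s_at and 0.53 on 1435751_at, without control replicate 2 they were 0.026 and 0.17, and without control replicate 1 the latter was 0.19.

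The third probe set of Abcc9, 1420408_a_at, was dim, with 4.86, 5.27 and 4.87 in controls and 4.98, 4.95 and 4.91 after BPA. Control replicate 2 was the highest, and the replicate 3 arrays were not set apart here. The difference was -0.052 ± 0.125 (SE; limma adjusted p = 0.956) in the fit without a filter.

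Kcnj8 encodes Kir6.1, the pore partner of SUR2 in vessels. Its 1 probe set, 1418142_at, read 7.58, 7.38 and 7.57 in controls and 7.49, 7.55 and 7.92 after BPA. BPA replicate 3 was above all other arrays, and the other 5 lay between 7.38 and 7.58. Means were 7.65 ± 0.23 and 7.51 ± 0.11 (SD, n = 3 per group), a difference of 0.15 ± 0.15 (SE; limma adjusted p = 0.891) with a 95% interval of 0.863 to 1.42 times the control signal. Without both replicate 3 arrays it was 0.043 ± 0.145, and without BPA replicate 3 alone 0.013. Unlike Abcc9 on its brighter probe sets, Kcnj8 was not low in the replicate 3 arrays, and the signals of Kcnj8 and Abcc9 (1435752_s_at) correlated at -0.79 over the 6 arrays.

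Of the 8 lists of cell type markers, the groups did not overlap for 1, that of pericytes and smooth muscle. Among all tested probe sets, taken singly, the groups did not overlap for 12.2%. With each marker centred on its own mean, the 10 pericyte and smooth muscle markers averaged -0.18, -0.16 and 0.0083 in controls and 0.047, 0.045 and 0.24 after BPA (log2). Their mean level was 8.57 to 8.76 in controls and 8.80 to 8.995 after BPA, a difference of 0.22 (p = 0.1 by a two-sided exact permutation test, n = 3 per group, not adjusted over the 8 lists and the smallest this design allows), which does not pass a threshold of 0.05. The 3′ minus 5′ balance of Actb and Gapdh also separated the groups, and its part in these markers and in Kcnj8 and Abcc9 was not tested. BPA replicate 3 was the highest array for these markers and for Kcnj8. Abcc9 on its brighter probe sets was lowest in that array. The part of these cells in the values of Kcnj8 and Abcc9 was not tested. The 8 endothelial markers above the filter, of 9, averaged 9.89 to 10.03 in controls and 9.90 to 10.14 after BPA, with Pecam1 below the filter.

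**Figure D3:**
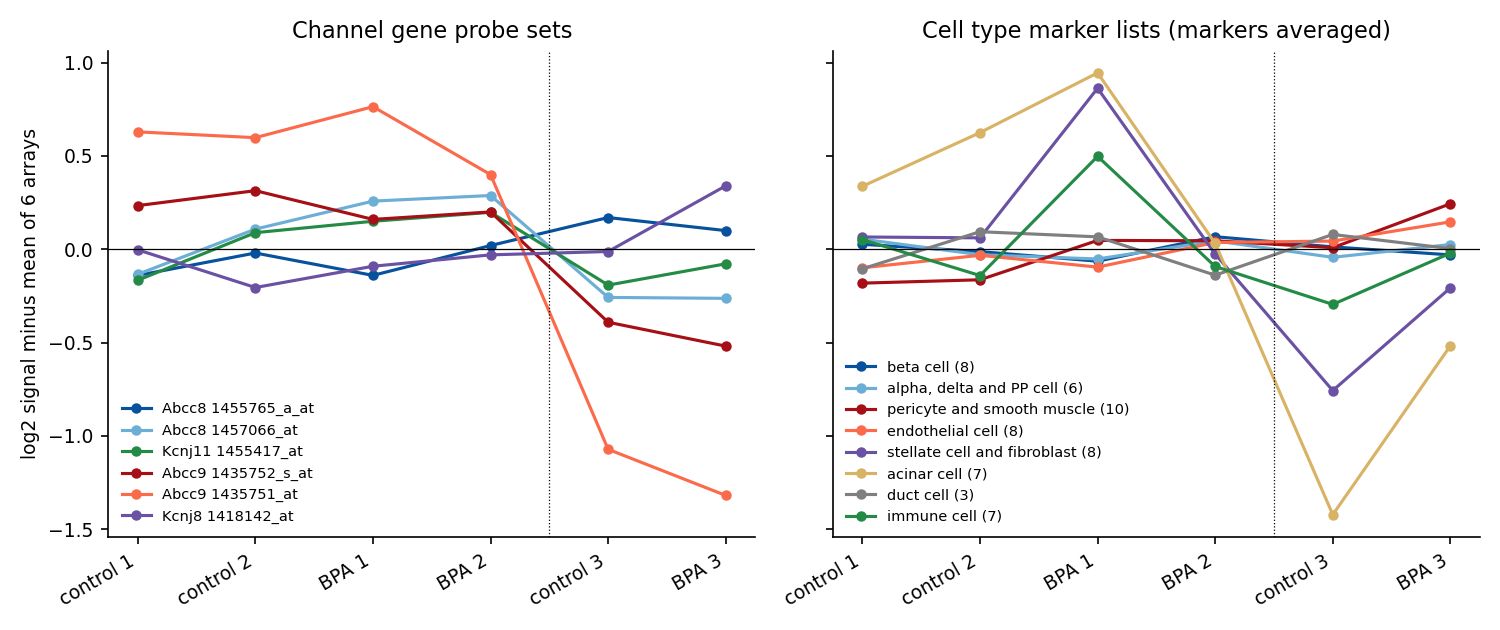
Log2 signal relative to the mean of the 6 arrays (vertical axis) for the 6 tested probe sets of the channel genes (left) and for 8 lists of cell type markers averaged over the markers above the filter, their number in brackets (right); the replicate 3 arrays stand to the right of the dotted line and lines only join points of 1 probe set or list. Abcc9 drops in the replicate 3 arrays on both probe sets, as do the acinar (-1.42 and -0.52) and stellate cell (-0.76 and -0.21) lists, while the pericyte list (0.0083 and 0.24) does not.

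For Abcc9 on its brighter probe sets the arrays differed more by replicate number than by treatment. Both replicate 3 arrays lay outside the range of the other 4 for 4 of the 6 tested member probe sets, where 35.9% of all tested probe sets did so. They were below it for 3 of 6 (21.3% of all): Abcc8 on 1457066_at and Abcc9 on 1435752_s_at and 1435751_at. They were above it for 1 of 6 (14.6% of all), Abcc8 on 1455765_a_at. Both Abcc9 probe sets counted here are annotated to the same source sequence, so they are not independent members. The replicate 3 mean of Abcc9 on 1435751_at was -1.79 relative to the other 4 arrays (log2), a size larger than in 99.6% of tested probe sets. Its replicate 3 values, 5.70 and 5.94, lay below the filter's cut of 6.60, so this probe set was kept through the other 4 arrays. For 1435752_s_at the replicate 3 mean was -0.68 relative to the others, larger in size than in 91.5%, and for Abcc8 on 1455765_a_at 0.21, larger than in 53.3%. These shares describe the arrays and carry no test, and the samples differ in replicate 3 across many genes. Acinar markers, from exocrine tissue carried along with islets, were also low in those arrays. The 7 above the filter, of 7 with a probe set of 1 gene alone, averaged 11.72 to 13.76 in controls and 12.62 to 14.08 after BPA. Cela3b was the brightest (14.60) and Ptf1a the dimmest (7.76). Markers of stellate cells and fibroblasts, all 8 above the filter, averaged 8.88 to 9.70 in controls and 9.43 to 10.50 after BPA. The part of either cell type in the Abcc9 values was not tested. Alpha, delta and PP cell markers (6 of 7 measured) averaged 12.55 to 12.65 in controls and 12.55 to 12.64 after BPA. Duct markers (3 of 6, with Sox9 and Cftr below the filter) averaged 9.80 to 10.00 and 9.77 to 9.97, and immune cell markers (7 of 8, with Cd68 below it) 8.95 to 9.30 and 9.16 to 9.75.

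Partner subunits were also compared within each array, on the brightest probe set of each gene. The difference between 2 probe sets says nothing of relative transcript number, and a change in it between groups holds only for the probe sets chosen. On its other tested probe set, 1457066_at, Abcc8 differed by 0.19 between the groups, beside 0.18 for Kcnj11 on 1455417_at. Kcnj11 minus Abcc8 was -4.90, -4.77 and -5.23 in controls and -4.59, -4.69 and -5.05 after BPA (log2). BPA replicates 1 and 2 exceeded all controls, and BPA replicate 3 lay inside their range. The groups differed by 0.19 (p = 0.4 by a two-sided exact permutation test, n = 3 per group; 0.6 after Benjamini-Hochberg adjustment over 2 comparisons). It was 0.057 without control replicate 3, 0.096 without BPA replicate 1, 0.29 without control replicate 2, 0.33 without BPA replicate 3 and 0.060 with the mean of each gene's probe sets. Kcnj8 minus Abcc9 was -1.64, -1.92 and -1.03 in controls and -1.66, -1.63 and -0.55 after BPA, with the highest value of each group in replicate 3. The groups differed by 0.25 (p = 0.6 by the same exact permutation test, n = 3 per group, adjusted 0.6), and without BPA replicate 3 it turned to -0.11. With 3 arrays against 3, neither test could go below 0.1.

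**Figure D4:**
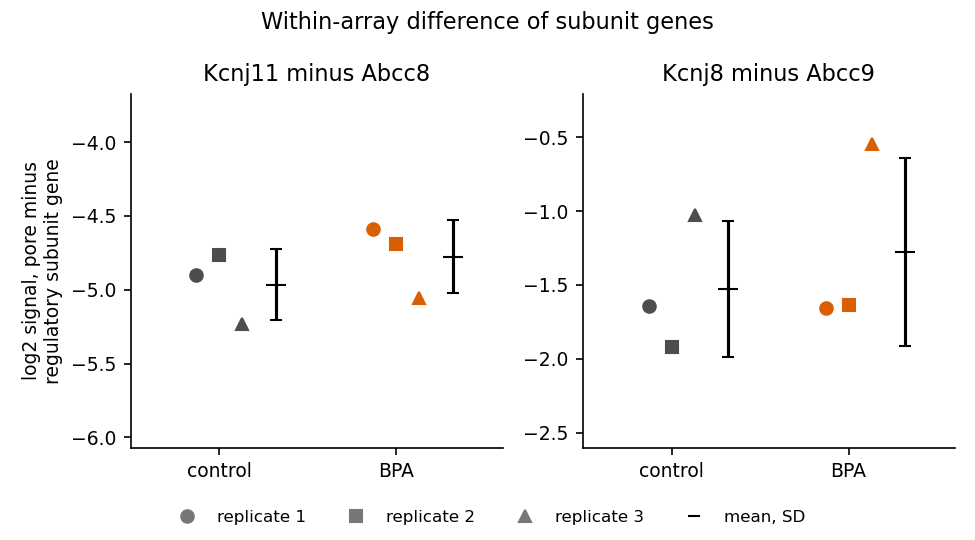
Within-array difference in log2 signal (vertical axis) between the pore and the regulatory subunit gene, for Kcnj11 minus Abcc8 (left) and Kcnj8 minus Abcc9 (right), with 1 point per array, control in grey and BPA in orange, marker shapes for replicate numbers and bars for the mean and SD (n = 3 per group). The groups overlap in both panels, and the replicate 3 arrays are the lowest of their group on the left and the highest on the right.

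Genes that act around the channel were counted in 6 lists, each gene by its brightest tested probe set. Of 107 listed genes 72 were measured and 0 passed limma's test at an adjusted p under 0.05, with 1 at an unadjusted p under 0.05 (1.39%). Over all 11787 genes 0 passed after adjustment and 629 before it (5.34%). Of the 72, 24 had higher and 48 lower mean signal after BPA, with a median of -0.037. Over all genes 6804 were higher and 4983 lower, with a median of 0.028. This split was not tested, and the counts behind it moved with 1 array left out. Among channel partners and trafficking genes the count of higher ones went from 4 to 8 without BPA replicate 3. Without BPA replicate 2 it was 2. For genes of membrane potential and calcium entry it went from 6 to 10 and to 5 in the same settings. For genes that set the nucleotide supply of the channel, 8 of 16 were higher and 8 lower (median 0.018). Slc25a4, the mitochondrial ADP/ATP carrier, read 13.08, 13.01 and 12.95 in controls and 12.95, 12.84 and 12.78 after BPA, a difference of -0.16 ± 0.08 (SE; limma adjusted p = 0.802). Its 2 other tested probe sets differed by 0.016 and 0.20. Prkag1, a subunit of the energy sensor AMPK, differed by 0.17 ± 0.11 (adjusted p = 0.833), and its other probe set by -0.16.

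Of 20 measured channel partners and genes of trafficking and phosphoinositide supply, 4 were higher and 16 lower (median -0.10), and 0 passed. The count of 4 was 8 without control replicate 1 or without BPA replicate 3, 2 without BPA replicate 2, and 8 when all tested probe sets of a gene were averaged. Hsp90aa1, a chaperone, read 13.46, 13.41 and 13.20 in controls and 13.18, 13.19 and 13.00 after BPA, -0.23 ± 0.10 (SE; limma adjusted p = 0.787), with its other probe sets at -0.96 and -0.46. Derl1, of the pathway that removes misfolded membrane proteins from the endoplasmic reticulum, differed by -0.16 ± 0.07 (adjusted p = 0.791), while its other 3 probe sets ranged from -0.0024 to 0.53.

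Downstream of the channel, 6 of 18 genes of membrane potential and calcium entry were higher and 12 lower (median -0.040). The count of 6 was 11 without control replicate 3 and 10 without BPA replicate 1 or BPA replicate 3. Trpm4, a calcium-activated cation channel that depolarises beta cells, was the gene with an unadjusted p under 0.05. It read 8.07, 8.02 and 8.35 in controls and 8.43, 8.38 and 8.73 after BPA, a difference of 0.37 ± 0.15 (SE, limma adjusted p = 0.759). Its relative Trpm5 read 9.96, 10.04 and 9.18 in controls and 10.39, 10.62 and 9.90 after BPA, 0.58 ± 0.28 (adjusted p = 0.796), and its other 2 probe sets differed by 0.13 and 0.45. Neither passed the test.

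Of 11 measured beta cell transcription factors 2 were higher and 9 lower (median -0.090). The count of 2 was 1 without control replicate 1, control replicate 2 or BPA replicate 2, and 4 of a larger set of genes without the filter. Pdx1, a regulator of beta cell genes, read 11.31, 11.32 and 11.22 in controls and 11.03, 11.13 and 11.08 after BPA, and did not pass (limma adjusted p = 0.781), with -0.043 on its other probe set. Glis3 differed by -0.32 ± 0.18 (SE; adjusted p = 0.830), mostly through BPA replicate 1 at 10.15.

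Of the relatives of the regulatory subunits, 4 of 9 other ABCC transporter genes were measured, 1 higher and 3 lower (median -0.069); the count of 1 was 2 without the filter or with tested probe sets averaged. Abcc1, a drug efflux pump, differed by -0.13 ± 0.14 (SE; limma adjusted p = 0.896) and Abcc5, a nucleotide analogue transporter, by -0.087 ± 0.156 (adjusted p = 0.940), with 5 other probe sets of Abcc5 between 0.0045 and 0.26. Of the relatives of the pores, 3 of 13 other inward rectifier genes lay above the filter, all 3 with higher mean signal (median 0.20). Without the filter 7 of 13 were higher, and without control replicate 3 it was 2 of 3. Kcnj4 read 7.12, 7.05 and 7.09 in controls and 7.31, 7.37 and 7.26 after BPA, a difference of 0.23 ± 0.10 (SE, limma adjusted p = 0.791). Kcnj10 differed by 0.20 ± 0.27 (adjusted p = 0.917), with control replicate 3 the lowest at 6.85.

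The genes whose signals ran most like each member over the 6 arrays were taken from 19386 tested probe sets of 1 gene each, less the member's own. For Abcc8 (1455765_a_at) they were Nsd3, Iffo1 and Myadm, with r from 0.986 to 0.992. For Kcnj11 (1455417_at) they were Sars, Jam3 and Emilin1 (0.994 to 0.998), for Abcc9 (1435752_s_at) Tnpo1, Ppil4 and Bmpr1a (0.994 to 0.996), and for Kcnj8 Ids, Foxn3 and Igsf8 (0.979 to 0.998). With 6 points many probe sets reach such values: r was above 0.95 for 63 probe sets with Abcc8, 175 with Kcnj11, 345 with Abcc9 and 31 with Kcnj8. The partner subunit was among none of the 4 sets of 3, the usual outcome for any single gene, so this says nothing of the partners' likeness. Kcnj11 (1455417_at) correlated at 0.94 with Abcc8 on its other tested probe set, 1457066_at.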

How the data were processed

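Islet RNA of 6 samples was hybridised to 6 arrays, from 1 µg of total RNA each, per the labels' protocols. For each array the authors deposited log2 signals, 1 per probe set. The submitters' processing notes name MAS5 and no version; how probes were summarised and arrays scaled was not given in the sources used here. The lowest value per array, 2.95 to 3.04, is unlike plain MAS5 output, so what made these signals is not settled, which bears most on dim probe sets; detection calls were not used. Values were used as deposited. Of 45037 probe sets other than 64 array controls, 34945 had 1 gene in the platform annotation, 932 several and 9160 none; gene IDs of 34741 matched the RefSeq table. The comparison used limma 3.58.1 under R 4.3.3 (lmFit, then eBayes with a trend, two-sided) on the 22518 probe sets above the median of the means. Benjamini-Hochberg adjustment and a threshold of 0.05 were applied. The code was run on simulated data with independent noise, without the replicate 3 pattern, and with changes larger than the members' differences. That run therefore cannot say what the test would miss in these arrays. Single values were compared by exact permutation in scipy 1.17.1. Members, lists and the rule for named genes (every member probe set; 2 genes per list with the smallest p; 3 per member with the highest r) were chosen with earlier results of these data known. The number of arrays limits the precision.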

Additional observations from a re-analysis of the deposited data

How the results depend on the processing

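No probe set of the whole table, members included, passed the adjusted threshold of 0.05 in the settings run on it: other scalings, filters and moderation, an ordinary test, a block for the replicate number, and each array or both replicate 3 arrays left out. No member passed as a mean over its probe sets. The list counts of 0 were recomputed without a filter, with quantile normalization, with tested probe sets averaged, and with arrays left out. For the lists, leaving out both replicate 3 arrays was chosen after seeing the data. At an unadjusted p under 0.05 there were 936 to 3162 probe sets over the settings that tested 22518, and 1458 in the main one. The difference of Abcc8 on 1455765_a_at turned to 0.011 with median centring, 0.016 with cyclic loess, 0.017 without both replicate 3 arrays and 0.089 for the mean of its probe sets, and ran from -0.082 to 0.072 with each array left out. With each array left out, Abcc9 ran from -0.33 to 0.13 on 1435752_s_at and from -0.67 to 0.53 on 1435751_at, Kcnj11 minus Abcc8 from 0.057 to 0.33 and Kcnj8 minus Abcc9 from -0.11 to 0.50. The other members kept their sign in the settings run, apart from 1420408_a_at, which lay below the filter (-0.12 to 0.084).

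Each sample's deviations from the mean of its own group were correlated between the groups. Same-numbered samples gave r = 0.48, 0.078 and 0.71 for replicates 1 to 3. Differently numbered samples gave 0.40 (control 1 with BPA 2) and 0.43 (control 2 with BPA 1), and -0.35 to -0.67 where 1 of them was replicate 3. Replicate 3 went together across the groups, while the number did not set replicates 1 and 2 apart. The numbers were therefore not taken to pair the samples. With the replicate block, 0 probe sets passed and 3042 had an unadjusted p under 0.05; the smallest adjusted p of a member was 0.538, for Abcc8 on 1457066_at, and the SE of Abcc9 on 1435751_at fell from 0.66 to 0.13. The filter at the 75th percentile left no value for Kcnj11, Kcnj8 and Abcc9 on 1435751_at.

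With 3 arrays a group, the 95% intervals of the tested members ran from -0.27 to 0.25 at the narrowest (Abcc8 on 1455765_a_at) and from -1.68 to 1.47 at the widest (Abcc9 on 1435751_at). No detection calls were used, so the signal of dim probe sets over background was not measured.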
